A study of Homo sapiens with 9 samples.

Results

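Solute carrier genes (symbols in SLC or SLCO) and ATP-binding cassette genes (symbols in ABC) encode most of the proteins that carry nutrients, ions and drugs across human membranes. They were taken by symbol from the deposited comparison of doxorubicin-treated with control cells, as SLC or SLCO followed by a digit, or ABC followed by a letter from A to G and a digit, without a hyphen. The rule gave 113 of the 6499 listed genes, of which 97 are SLC or SLCO genes and 16 are ABC genes, and all 113 are protein-coding in GENCODE release 29. A further 3 hyphenated symbols, which are antisense genes, were left out.

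The WI-38 cells are an established line of human fetal lung fibroblasts with a limited lifespan in culture, used here at population doubling 30. The control group received the DMSO carrier in place of doxorubicin and then medium with DMSO for 48 h. The doxorubicin group received 1 μM doxorubicin, an anthracycline that damages DNA, for 12 h and then the same DMSO medium for 48 h, and a last group received oridonin over those 48 h. Each group had 3 libraries, and only the control and doxorubicin libraries, 6 in all, have values here. All libraries come from 1 cell line, and no label says that they came from separate cultures, so the p-values measure only the spread between these libraries.

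Solute carriers move their cargo down a gradient, or against it by coupling to sodium, protons or a counter-substrate, while most ABC proteins burn ATP to push substrates out of the cytosol. In fibroblasts the plasma membrane carriers bring in the glucose, glutamine, cystine and essential amino acids that growth requires. The SLC25 carriers link the mitochondrial matrix with the cytosol, the SLC39 proteins bring zinc into the cytosol, and several ABCC proteins export drugs and conjugates.

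The table lists genes that the authors had selected with their own thresholds (fold over 1.2 and p under 0.05) on these same 6 libraries. Every count and p-value below therefore describes the size and spread of changes that were selected for being changes. Some listed genes fall short of that fold on the values used here, such as ABCB9 and SLC25A4, with ratios of means of 1.02 and 1.05. The authors' folds were thus not the ratios of these values, and the scales were not compared. Transporter genes that the table does not list were left aside. The values were read as TPM (a level per length of transcript, scaled to a fixed total per library), and limma was run on log2(TPM + 1) over every listed gene whose mean reached 1 TPM. This scale understates the changes of low genes. A gene was called at an adjusted p under 0.05 and a fold over 1.2. Together the listed genes made up 54.3 to 54.8% of the TPM scale in the control libraries and 58.6 to 60.0% in the doxorubicin libraries, and Pearson's r across genes, which are not independent replicates, was at least 0.992 between libraries of a group.

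On the TPM values, more transporter genes were lower than higher after doxorubicin. Of the 113 genes, 99 reached a mean of 1 TPM and were tested, and 57 were called lower, 19 higher and 23 neither. Over all 5721 genes tested, 48.5% were called lower and 22.7% higher, against 57.6% and 19.2% of the transporter genes. The median log2 fold change was -0.48 for the transporter genes and -0.28 for all genes tested, a difference of -0.20. The libraries of the groups did not overlap for 58 genes that were lower and 29 that were higher after doxorubicin, where 48.4% and 32.3% of all genes tested showed such a separation.

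This balance depended on how the libraries were scaled. Median-ratio scaling moved the median over all genes tested by 0.21 on the log2 scale, and quantile normalization moved it by 0.27. Both were computed from the tested genes of the list alone, which were selected for being changes. These methods assume that most genes are unchanged or that libraries share a distribution, which such a list need not meet. A call that held under both therefore describes its range over scalings and does not show which scale is right. After median-ratio scaling 47 transporter genes were called lower and 39 higher, with a background of 36.2% and 44.0% of all genes tested. After quantile normalization the counts were 32 lower and 34 higher, with a background of 28.7% and 33.0%. The 19 genes called higher kept that call under both scalings, and 30 of the 57 called lower did. No called gene changed sign under either scaling.

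**Figure D1:**
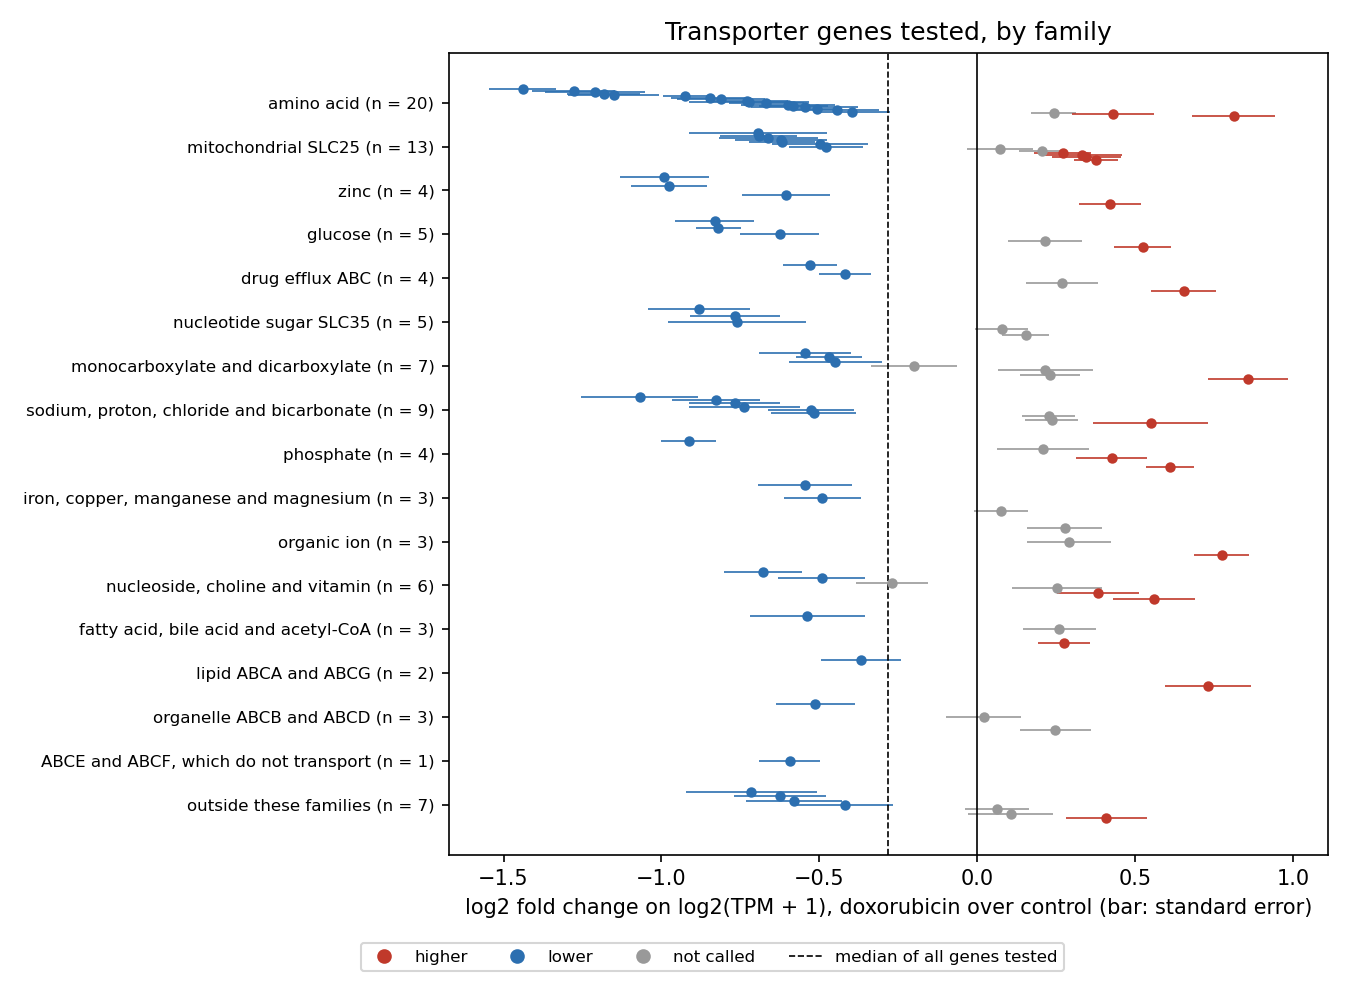
Log2 fold change of doxorubicin over control on the log2(TPM + 1) scale (x axis) for the 99 transporter genes tested, by family (y axis, with the number of genes), with the limma standard error as a bar and the call by colour. The dashed line is the median of all genes tested, -0.28, and 17 of the 20 amino acid genes lie to the left of it as lower calls while 2 lie to the right of 0 as higher calls.

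Most amino acid transporter genes were lower after doxorubicin. Of 20 genes tested, 17 were called lower, 2 higher and 1 neither, where 48.5% of all genes tested were called lower, and the family median was -0.69 on the log2 scale, which is -0.41 from the median over all genes. The counts were 14 lower and 3 higher after median-ratio scaling and 12 lower and 3 higher after quantile normalization, and the same 12 genes held the call under both. The summed level of the 21 listed genes of the family was 864, 850 and 823 TPM in controls and 555, 506 and 598 TPM with doxorubicin, so that the sums fell to 0.654 times the control mean without overlap. In bulk RNA, fewer cells of a type and less of an RNA per cell cannot be told apart.

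SLC7A5 (ENSG00000103257, chromosome 16, 87830023 to 87869488 on GRCh38), the light chain of the LAT1 exchanger for leucine and other large neutral amino acids, had the largest fall of any transporter gene tested on the log2(TPM + 1) scale. By the ratio of means, SLC6A9 (0.316), SLC8A1 (0.342) and SLC43A3 (0.346) fell further than SLC7A5 (0.353). Its level was 36.4, 35.0 and 34.7 TPM in controls and 11.2, 11.7 and 14.5 TPM with doxorubicin. The fitted log2 change was -1.44 (SE 0.11, limma adjusted p = 2.32e-06). SLC7A11 (ENSG00000151012, chromosome 4, 138164097 to 138242349), the xCT light chain that exchanges glutamate for cystine, was at 20.1, 21.4 and 20.8 TPM in control libraries and at 8.74, 7.33 and 9.85 TPM after doxorubicin. Each doxorubicin value was under 0.5 times the lowest control value, and the fitted log2 change was -1.18 (SE 0.12, limma adjusted p = 1.93e-05). SLC3A2 (ENSG00000168003, chromosome 11, 62856102 to 62888875), the heavy chain that both light chains need to reach the cell surface, was at 217, 195 and 209 TPM in control libraries and at 152, 142 and 143 TPM after doxorubicin. Its change was the smallest of the 3 genes, with a fitted log2 change of -0.51 (SE 0.06, limma adjusted p = 7.08e-05). Within a library, the ratio of SLC7A5 to SLC3A2 was 0.171 ± 0.00707 in control and 0.0861 ± 0.0142 after doxorubicin (SD, n = 3 each), and that of SLC7A11 to SLC3A2 was 0.101 ± 0.00832 and 0.0595 ± 0.00881. Neither ratio overlapped between the groups, and a ratio within a library is free of any constant factor for that library. Quantile normalization is no such factor and moved the difference of the log2 changes from -0.93 to -0.71 for SLC7A5 and from -0.67 to -0.39 for SLC7A11.

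SLC38A2, SLC3A2 and SLC1A5 had the highest levels among the listed genes of the family. SLC1A5 (ENSG00000105281, chromosome 19, 46774883 to 46788594), the ASCT2 exchanger for glutamine and other neutral amino acids, was at 180, 166 and 183 TPM in control libraries and at 90.4, 87.2 and 99.6 TPM after doxorubicin. All 3 doxorubicin values were far below the lowest control value, and the fitted log2 change was -0.93 (SE 0.07, limma adjusted p = 2.62e-06). SLC38A2 (ENSG00000134294, chromosome 12, 46358189 to 46372867), a sodium-coupled carrier of small neutral amino acids also known as SNAT2, was at 256, 279 and 236 TPM in control libraries and at 172, 145 and 201 TPM after doxorubicin, with doxorubicin replicate 3 nearest the control values. The fitted log2 change was -0.58 (SE 0.11, limma adjusted p = 0.00128). The related SLC38A1 and SLC38A4 had log2 fold changes of -0.67 and -0.73.

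Carriers of glycine and of cationic amino acids were also lower. SLC6A9, the glycine transporter GlyT1, was at 5.97 ± 0.45 TPM in control and 1.88 ± 0.35 TPM after doxorubicin (SD, n = 3 each), or a log2 change of -1.28. SLC43A3, placed in this family by its series number, is known as a carrier of purine nucleobases, and it was at 6.96 ± 1.59 and 2.41 ± 0.364 TPM (SD, n = 3 each), or a log2 change of -1.21. SLC7A1, the cationic amino acid transporter CAT1 for arginine and lysine, was at 12.3, 13.6 and 11.3 TPM in control libraries and 4.63, 4.30 and 6.31 TPM after doxorubicin, or a log2 change of -1.15. SLC7A2, which also carries cationic amino acids, and SLC1A4, an exchanger of alanine, serine and cysteine, had log2 fold changes of -0.85 and -0.81. Without SLC43A3 the family had 16 lower and 2 higher of 19 genes tested, a count made after the values were seen. SLC6A9, SLC43A3, SLC7A1, SLC7A2 and SLC1A4 were among the 12 that held the lower call under both other scalings. The lower calls of SLC36A4, SLC6A6, SLC7A6, SLC1A1 and SLC36A1, with log2 fold changes from -0.72 to -0.40, were lost after quantile normalization, and those of the last 3 also after median-ratio scaling.

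The members that rose were SLC38A5 and SLC7A14. SLC38A5 (ENSG00000017483, chromosome X, 48458537 to 48470256), the system N carrier SNAT5 for glutamine, histidine and glycine, was at 7.03, 8.66 and 7.05 TPM in control libraries and at 15.6, 14.7 and 12.0 TPM after doxorubicin. All doxorubicin values lay above all control values, and the fitted log2 change was 0.81 (SE 0.13, limma adjusted p = 0.000431). SLC7A14 was low, at 1.17 ± 0.118 and 1.92 ± 0.256 TPM (SD, n = 3 each), or a log2 change of 0.43, and without doxorubicin replicate 1 it was no longer called, which left 1 gene of the family called higher. SLC38A10 was at 45.4 ± 1.66 and 53.9 ± 2.35 TPM (SD, n = 3 each) and had a fold under 1.2 (log2 fold change 0.24), while both other scalings called it higher.

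**Figure D2:**
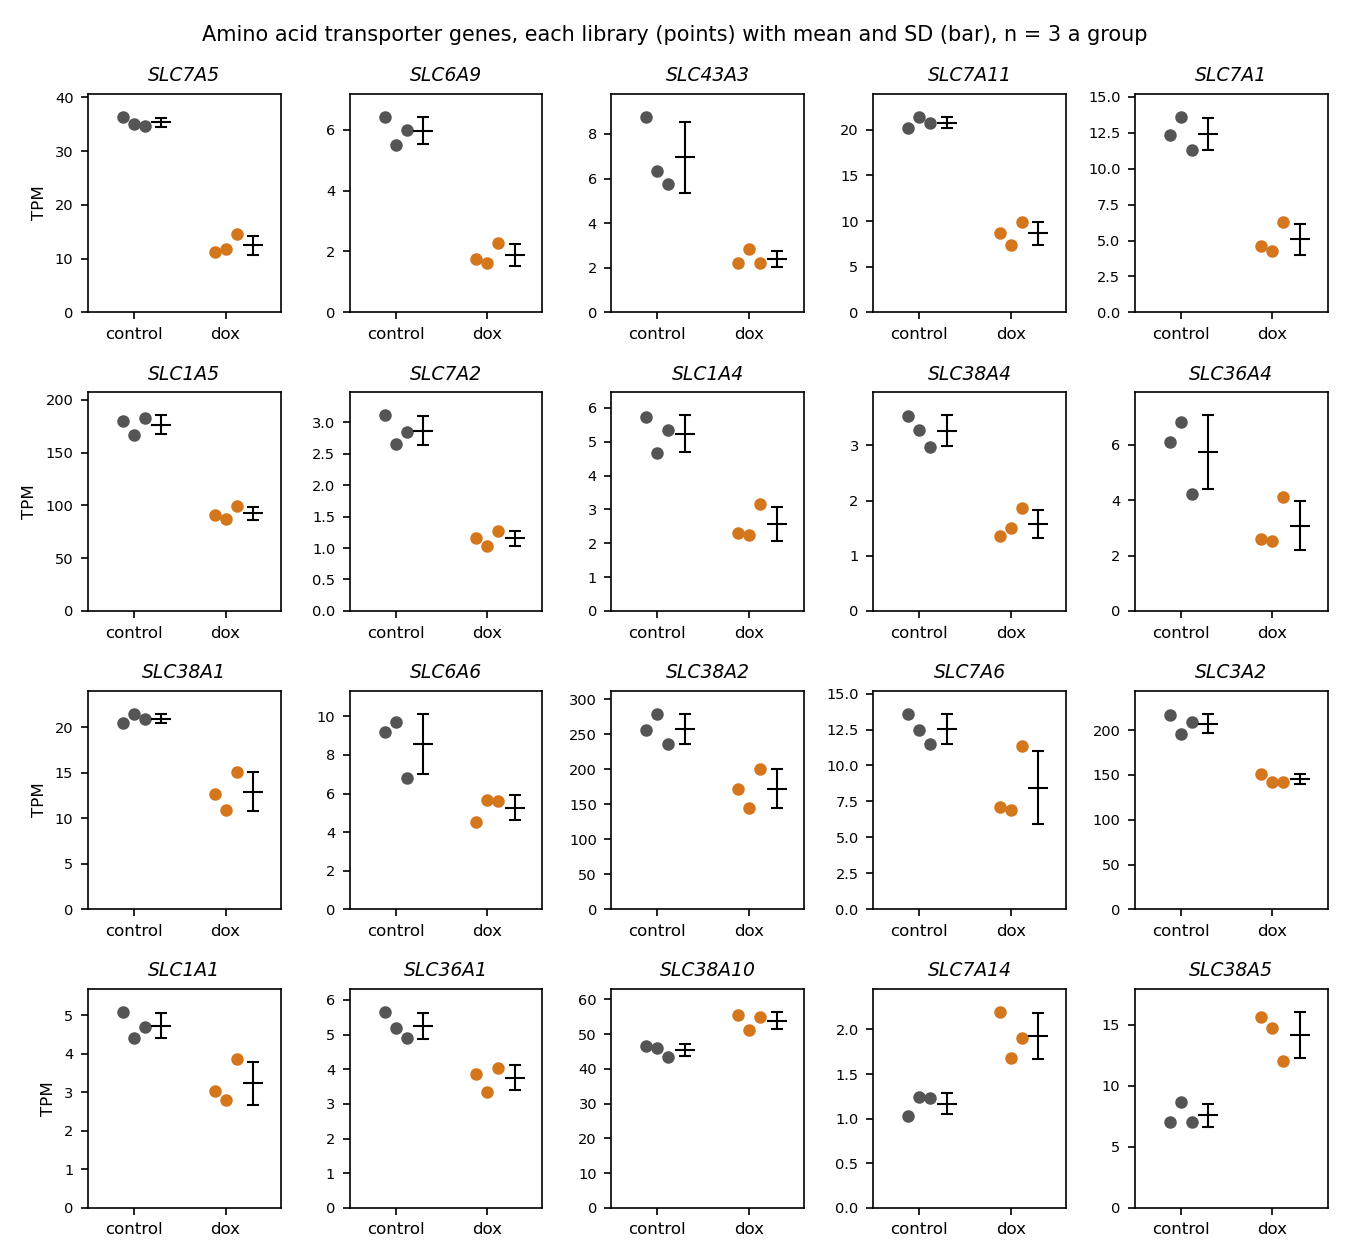
TPM (y axis, from 0) of the 20 amino acid transporter genes tested in each of the 3 control and 3 doxorubicin libraries (points), with the mean and SD beside them. In 17 panels every doxorubicin point lies below every control point, and in the panels of SLC38A10, SLC7A14 and SLC38A5 every doxorubicin point lies above.

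Promoter sequences were available for 85 of the 113 genes, as RefSeq windows on GRCh38.p14 from 250 bases before to 50 bases after the start of the gene. The motif TGATGNAA, a short form of the element through which ATF4 acts on amino acid genes, was searched on both strands. It was present in 3.67% of the 27305 promoters, in 4 of the 74 tested transporter genes with a promoter (5.41%) and in 3 of the 16 amino acid genes with one. The 3 genes were SLC7A1, SLC38A1 and SLC3A2, which were all called lower. Their matches are shown in capitals within 30 bases, 5′ to 3′ on the strand of the gene. The match of SLC7A1 starts at base 8 after the start of the gene (chr13:29595663-29595692, minus strand), that of SLC38A1 at base -4 (chr12:46266502-46266531, minus strand), and that of SLC3A2, which is on the opposite strand of the gene, at base 38 (chr11:62881719-62881748, plus strand).
SLC7A1: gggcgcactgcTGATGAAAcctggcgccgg
SLC38A1: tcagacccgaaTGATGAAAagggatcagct
SLC3A2: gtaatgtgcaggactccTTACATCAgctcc
The RefSeq start of SLC3A2 lies inside the GENCODE gene, downstream of its first base. SLC7A11 has no window in the table.

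The E-box CACGTG, bound by MYC and by the lysosomal regulators TFEB and TFE3, was in 7.43% of all promoters and in 7 of the 74. In the amino acid family it was in SLC7A5, which was called lower, and in SLC38A5, which was called higher, so that a match went with either direction. The 250 bases before each start are shown with the match in capitals, on the minus strand, for SLC7A5 (chr16:87869508-87869757, match from base -130) and SLC38A5 (chrX:48470261-48470510, match from base -206).
SLC7A5: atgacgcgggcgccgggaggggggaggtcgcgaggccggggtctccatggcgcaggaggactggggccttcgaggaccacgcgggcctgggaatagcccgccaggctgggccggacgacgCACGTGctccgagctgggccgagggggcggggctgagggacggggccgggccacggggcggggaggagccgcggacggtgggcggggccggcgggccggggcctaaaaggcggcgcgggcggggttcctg
SLC38A5: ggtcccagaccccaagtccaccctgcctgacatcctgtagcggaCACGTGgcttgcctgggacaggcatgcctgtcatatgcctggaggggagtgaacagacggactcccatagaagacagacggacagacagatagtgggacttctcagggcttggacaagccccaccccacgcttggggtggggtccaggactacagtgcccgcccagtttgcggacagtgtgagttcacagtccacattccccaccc
The cyclic AMP element TGACGTCA was in 1.98% of all promoters and in 4 of the 74, and the short metal response core TGCNCNC was in 55.2% of all promoters, in 47 of the 74 and in 2 of the 3 zinc transporter genes with a window. No match of TGATGNAA or CACGTG printed here overlaps another of these motifs. A match is a description of the letters only.

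Most genes on a list drawn up for the amino acid response outside the transporter families were lower as well. Of 12 genes chosen by name, 11 were listed and tested, 8 were called lower and 0 higher, against 48.5% and 22.7% of all genes tested. The list's median was -1.01 on the log2 scale. The 8 include GCLM and GCLC, genes of glutathione synthesis rather than of this response in the strict sense, at -1.01 and -0.64. The median is the value of GCLM, and no count was made without these genes. At an unadjusted p under 0.05 none of the 11 was called higher with a fold over 1.2 either. ATF4, the transcription factor of this response, was at 346, 323 and 355 TPM in control libraries and 201, 202 and 224 TPM after doxorubicin, a fitted log2 change of -0.71 (SE 0.06, limma adjusted p = 9.84e-06). ASNS, which makes asparagine, and the serine synthesis genes PHGDH and PSAT1 had log2 fold changes of -1.66, -1.88 and -2.13. DDIT3 and EIF2AK4, at 0.07 and -0.01, were not called. SESN2, a stress-induced leucine sensor, went from 17.4 ± 0.415 to 20.6 ± 0.817 TPM (SD, n = 3 each) and was not called because its fold was under 1.2. Its log2 change of 0.22 became 0.41 with quantile normalization and 0.45 with median-ratio scaling.

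Of 5 glucose carriers tested, 3 fell, 1 rose and 1 was not called. That is 60% lower and 20% higher, against 48.5% and 22.7% of all genes tested. SLC2A1 (ENSG00000117394, chromosome 1, 42925375 to 42959176), the basal glucose carrier GLUT1, was at 145, 147 and 160 TPM in control libraries and at 78.8, 89.0 and 87.1 TPM after doxorubicin, without overlap. The fitted log2 change was -0.82 (SE 0.07, limma adjusted p = 6.53e-06). SLC2A3, the high-affinity carrier GLUT3, was at 41.5, 45.0 and 32.1 TPM in control libraries and at 19.7, 21.2 and 23.9 TPM after doxorubicin, a fitted log2 change of -0.83 (SE 0.13, limma adjusted p = 0.000314). SLC2A10 was lower as well, with a log2 fold change of -0.63, and these 3 calls held under both other scalings. SLC50A1 (ENSG00000169241, chromosome 1, 155135344 to 155138857), the human SWEET sugar carrier, rose from 25.2 ± 1.11 to 36.8 ± 3.25 TPM (SD, n = 3 each), by a fitted log2 change of 0.52 (SE 0.09, limma adjusted p = 0.000594). SLC2A8, the intracellular carrier GLUT8, was at 8.35 ± 0.295 and 9.89 ± 1.14 TPM with overlapping libraries and was not called on the TPM values (adjusted p = 0.113 from limma), while both other scalings called it higher. SLC2A13, a myo-inositol carrier, was under 1 TPM on average and not tested. The summed level of the 6 listed genes was 233 to 242 TPM in control and 153 to 168 TPM after doxorubicin.

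Of 8 genes of glucose handling chosen by name, 6 were listed and tested. Of these, 4 were called lower and 1 higher, against 48.5% and 22.7% of all genes tested. LDHA, which turns pyruvate into lactate, was at 652 ± 18.1 and 438 ± 6.6002 TPM (SD, n = 3 each), which is a log2 change of -0.57. TXNIP, which holds back glucose uptake, rose with a log2 fold change of 0.46. SLC16A1, the lactate carrier MCT1, had a log2 fold change of -0.47 and lost its lower call after median-ratio scaling. The largest rise of any transporter gene tested was that of SLC16A6 (ENSG00000108932, chromosome 17, 68267026 to 68291267), the carrier MCT7, which went from 1.13, 1.38 and 1.16 TPM in control libraries to 3.14, 3.24 and 2.71 TPM after doxorubicin, a fitted log2 change of 0.86 (SE 0.13, limma adjusted p = 0.000244).

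Zinc importers of the SLC39 (ZIP) family split in direction. The 4 genes tested had 3 called lower and 1 higher, or 75% and 25%, against 48.5% and 22.7% of all genes tested. SLC39A14 (ENSG00000104635), ZIP14, which carries zinc, iron and manganese, was at 19.6, 20.6 and 19.1 TPM in control libraries and at 9.30, 8.28 and 11.25 TPM after doxorubicin. The fitted log2 change was -0.98 (SE 0.12, limma adjusted p = 7.75e-05). SLC39A6, ZIP6, was at 34.2, 45.1 and 39.3 TPM and at 19.5, 15.8 and 23.3 TPM, with a fitted log2 change of -0.99 (SE 0.14, limma adjusted p = 0.000234), and its partner SLC39A10, ZIP10, had a log2 fold change of -0.61. SLC39A3 (ENSG00000141873), ZIP3, was higher, at 25.4, 30.9 and 24.2 TPM in control libraries and 36.1, 35.8 and 36.1 TPM after doxorubicin, a fitted log2 change of 0.42 (SE 0.10, limma adjusted p = 0.00341). All 4 calls held under both other scalings. None of the SLC30 zinc exporters is among the 113 genes, and they were not analysed here.

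Of 8 genes of zinc buffering chosen by name, 4 were listed and tested. Of these, 3 were called higher and 1 lower, against 22.7% and 48.5% of all genes tested. The metallothionein genes MT2A, MT1X and MT1E, whose proteins bind zinc, were called higher, with log2 fold changes of 0.34, 0.55 and 0.33, and MTF1, the zinc-sensing factor that drives them, was called lower at -0.37. After quantile normalization the log2 changes of MT2A, MT1E and MT1X were -0.02, 0.14 and 0.50, so the direction of MT2A depended on the scaling.

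Drug efflux genes of the ABC family also differed in direction. With 4 genes tested, 2 were called lower, 1 higher and 1 neither. These shares, 50% lower and 25% higher, lie near the 48.5% and 22.7% of all genes tested. ABCC1 (ENSG00000103222, chromosome 16, 15949577 to 16143074), the exporter MRP1, which is known to export doxorubicin, was at 71.0, 70.6 and 70.9 TPM in control libraries and at 47.6, 44.0 and 55.4 TPM after doxorubicin. The fitted log2 change was -0.53 (SE 0.09, limma adjusted p = 0.000452). ABCC4, the exporter MRP4 of cyclic nucleotides, had a log2 fold change of -0.42 and was not called after median-ratio scaling. ABCC3 (ENSG00000108846, chromosome 17, 50634777 to 50692252), the exporter MRP3 of glucuronides, rose from 20.9, 17.4 and 16.8 TPM to 28.6, 28.1 and 31.5 TPM, a fitted log2 change of 0.65 (SE 0.10, limma adjusted p = 0.000369). ABCC10 was at 16.8 ± 1.15 and 20.6 ± 2.75 TPM (SD, n = 3 each), just outside the call (adjusted p = 0.0502 from limma), and was called higher in both other scalings, with an unadjusted p in place of the adjusted one and without doxorubicin replicate 1. ABCB1 and ABCG2, the best known exporters of anthracyclines, are not among the 113 genes and were not analysed here. SLC22A16, an organic cation carrier known to take up doxorubicin, is listed at 0 in all control libraries and at 0.17, 0.05 and 0.08 TPM after doxorubicin. Of 11 genes of drug handling chosen by name, 5 were listed and tested. Of these, 2 were called higher and 2 lower, against 22.7% and 48.5% of all genes tested. NFE2L2, the factor that drives antioxidant and export genes, was among the lower, with a log2 fold change of -0.62.

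**Figure D3:**
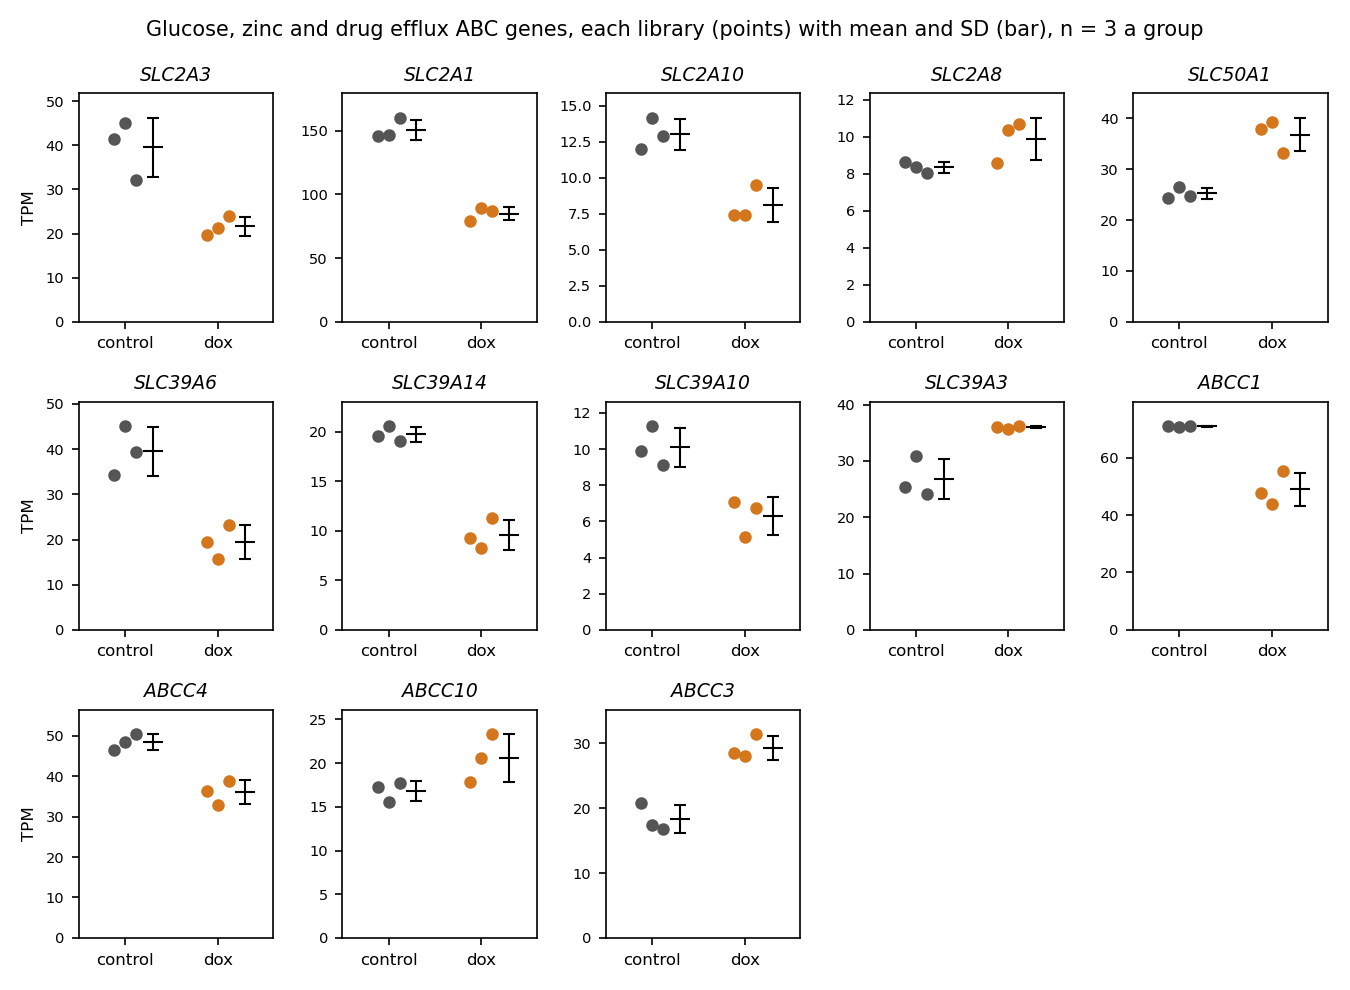
TPM (y axis, from 0) of the 13 glucose, zinc and drug efflux ABC genes tested in each of the 3 control and 3 doxorubicin libraries (points), with the mean and SD beside them. SLC2A1 falls from 145 to 160 TPM in control to 78.8 to 89.0 TPM after doxorubicin, while ABCC3, SLC39A3 and SLC50A1 rise without overlap.

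Mitochondrial SLC25 carriers were mixed. Of 13 genes tested, 7 were called lower, 4 higher and 2 neither, and the median log2 fold change was -0.48. The summed level differed little between groups, at 264 to 272 TPM in control and 272 to 301 TPM after doxorubicin. The shares called lower and higher were 53.8% and 30.8%, where those of all genes tested were 48.5% and 22.7%. The balance turned with the scaling, to 5 lower and 6 higher after median-ratio scaling and 2 lower and 5 higher after quantile normalization. Over all genes tested it turned as well, to 36.2% lower and 44.0% higher after median-ratio scaling and 28.7% and 33.0% after quantile normalization. The higher calls were 1 without doxorubicin replicate 1 and 2 without doxorubicin replicate 3.

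The most abundant of the listed SLC25 genes was SLC25A39 (ENSG00000013306, chromosome 17, 44319625 to 44324870), whose protein brings glutathione into the matrix. It was at 77.3, 76.4 and 72.9 TPM in control libraries and at 90.9, 101 and 103 TPM after doxorubicin. The fitted log2 change was 0.38 (SE 0.07, limma adjusted p = 0.000924). Its close relative SLC25A40 was low, at 3.87, 2.46 and 2.55 TPM and at 1.24, 0.88 and 2.36 TPM, with a fitted log2 change of -0.69 (SE 0.22, limma adjusted p = 0.015), and was not called without control replicate 1, without doxorubicin replicate 2 or after quantile normalization. SLC25A26, which imports S-adenosylmethionine, SLC25A20, which exchanges carnitine and acylcarnitines, and SLC25A28, the iron carrier mitoferrin-2, had log2 fold changes of 0.35, 0.33 and 0.27. Each of these 3 calls was lost with at least 1 library left out.

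SLC25A24 (ENSG00000085491, chromosome 1, 108134036 to 108200849) and SLC25A25, which exchange ATP-magnesium for phosphate, were at 16.1 ± 1.08 and 14.4 ± 0.085 TPM in control and at 9.60 ± 1.38 and 9.03 ± 0.676 TPM after doxorubicin (SD, n = 3 each). Their log2 fold changes were -0.69 and -0.62, and these are the 2 lower calls of the family that held under both other scalings. SLC25A10, the dicarboxylate carrier, SLC25A51, the carrier of NAD, SLC25A30 and SLC25A12, the aspartate-glutamate carrier, had log2 fold changes of -0.66, -0.62, -0.50 and -0.48 on the TPM values. SLC25A4, the ADP/ATP carrier ANT1, was at 13.957 ± 1.13 and 14.7 ± 1.04 TPM (SD, n = 3 each) with overlapping libraries and was not called (adjusted p = 0.522 from limma), while both other scalings called it higher. SLC25A11, the oxoglutarate carrier, was at 52.6 ± 0.673 and 60.8 ± 4.21 TPM (SD, n = 3 each), with a fold under 1.2. Of 10 further genes of mitochondrial passage chosen by name, 2 were listed, the pyruvate carrier subunit MPC2, called higher with a log2 fold change of 0.27, and the calcium channel MCU, called lower with -0.42.

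**Figure D4:**
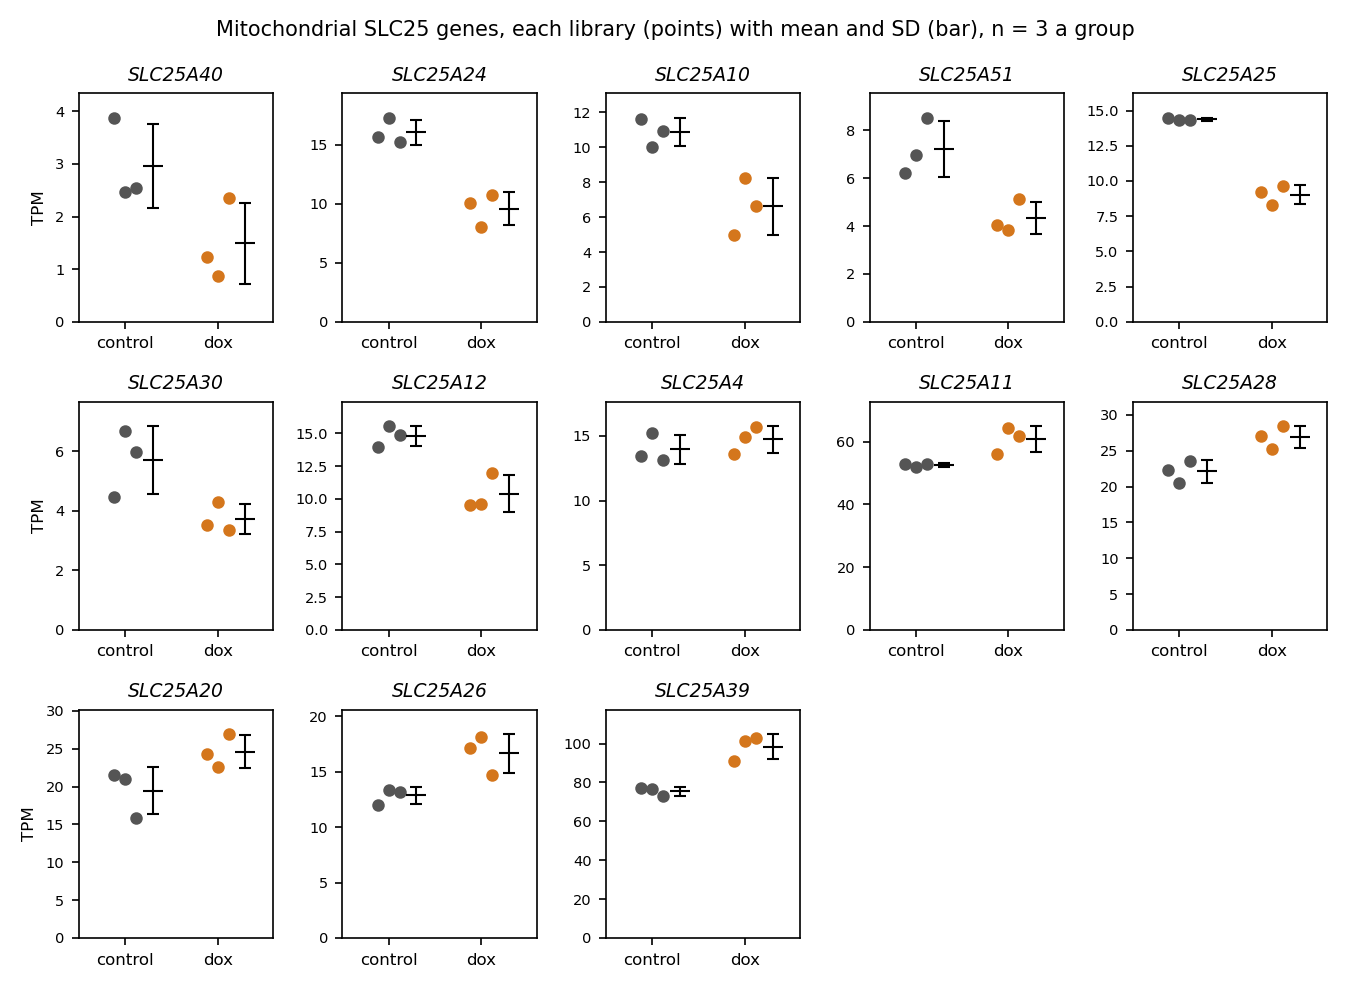
TPM (y axis, from 0) of the 13 mitochondrial SLC25 genes tested in each of the 3 control and 3 doxorubicin libraries (points), with the mean and SD beside them. The 7 genes from SLC25A40 to SLC25A12 lie lower after doxorubicin, and the 4 genes from SLC25A28 to SLC25A39 lie higher.

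Outside these 5 families, 53 genes were tested, 25 called lower, 10 higher and 18 neither, with a median log2 fold change of -0.20. These counts lie near the background of 48.5% lower and 22.7% higher over all genes tested, whose median was -0.28. The sodium-dependent phosphate carriers moved apart. SLC20A1 (ENSG00000144136, chromosome 2, 112645857 to 112663827), PiT1, was at 61.6, 68.7 and 57.5 TPM in control libraries and at 93.9, 96.7 and 97.0 TPM after doxorubicin, a fitted log2 change of 0.61 (SE 0.08, limma adjusted p = 8.2e-05). SLC20A2 (ENSG00000168575), PiT2, was at 45.0, 43.5 and 46.4 TPM and at 23.5, 21.4 and 25.4 TPM, a fitted log2 change of -0.91 (SE 0.09, limma adjusted p = 1.38e-05). Both calls held under both other scalings.

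Carriers of sodium, calcium, chloride and bicarbonate had 6 of 9 genes called lower, 1 higher and 2 neither, where 48.5% of all genes tested were called lower. The counts were 6 lower and 3 higher after median-ratio scaling and 4 lower and 3 higher after quantile normalization. SLC8A1 (ENSG00000183023, chromosome 2, 40097270 to 40611053), the sodium-calcium exchanger NCX1, was at 3.37, 4.16 and 3.18 TPM in control libraries and at 1.01, 0.75 and 1.90 TPM after doxorubicin, a fitted log2 change of -1.07 (SE 0.19, limma adjusted p = 0.000671). The bicarbonate carriers SLC4A7 and SLC4A4 had log2 fold changes of -0.83 and -0.77. SLC4A11 was called higher at 0.55, but not without control replicate 2 or without doxorubicin replicate 3.

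Of the metal carriers, SLC11A2, the iron importer DMT1, and SLC31A1, the copper importer CTR1, were called lower at -0.55 and -0.49, and neither was called after quantile normalization. In the nucleotide sugar family 3 of 5 genes were called lower and 0 higher by limma, where the shares over all genes tested were 48.5% and 22.7%. The counts were the same at an unadjusted p under 0.05, while median-ratio scaling called 2 higher. SLC35E2B had a log2 fold change of -0.88 and SLC35E2A of -0.76, and since these genes are near-identical copies the authors' counting could have split reads between them. SLC22A17, the lipocalin 2 receptor, was at 18.2, 15.8 and 16.9 TPM in control libraries and at 29.4, 29.5 and 30.3 TPM after doxorubicin, a fitted log2 change of 0.77 (SE 0.09, limma adjusted p = 4.96e-05). Among lipid carriers, ABCA7 rose from 3.61 ± 0.633 to 6.603 ± 0.486 TPM (SD, n = 3 each), or a log2 change of 0.73, and ABCA1, the cholesterol exporter, had a log2 fold change of -0.37 that was not called in either other scaling. SLC29A3, a lysosomal nucleoside carrier, rose with a log2 fold change of 0.56, and SLC44A1, a choline carrier, fell with -0.68. ABCE1, which recycles ribosomes and does not transport, was lower at -0.59. SLC16A14, SLC10A7 and ABCB10 were called lower at -0.55, -0.54 and -0.51, each lost after quantile normalization, and SLC10A3 was called higher at 0.28. Of the 7 genes tested that were placed in no family, 4 were called lower and 1 higher, against 48.5% and 22.7% of all genes tested. They ran from SLC14A1, a urea carrier, at -0.72 to SLC45A1 at 0.41, and none of the 4 lower genes was called after quantile normalization.

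Pairs of related carriers with opposite directions were set against each other within each library, which removes any constant factor for that library. The pairs were chosen after their values were seen and are given without a test. The ratio of SLC20A1 to SLC20A2 was 1.37, 1.58 and 1.24 in control libraries and 3.99, 4.53 and 3.81 after doxorubicin. The ratio of SLC39A3 to SLC39A14 was 1.30, 1.5005 and 1.27 and then 3.88, 4.32 and 3.21. For ABCC3 over ABCC1 it was 0.259 ± 0.0306 and 0.602 ± 0.0347, and for SLC38A5 over SLC38A2 it was 0.0294 ± 0.00183 and 0.0840 ± 0.0218 (SD, n = 3 each). That of SLC25A39 over SLC25A40 was 26.5 ± 5.82 and 77.3 ± 35.8 (SD, n = 3 each), with the widest spread because SLC25A40 is low. None of these ratios overlapped between the groups, and their means differed by 2.33-fold to 2.94-fold. The lack of overlap was fixed by the choice of pairs. The first gene of each pair was higher without overlap, and the second was lower without overlap. After quantile normalization, which is not a constant factor, the differences of the log2 changes kept their sign in the 5 pairs. That was fixed as well, since no called gene changed sign under this scaling. SLC25A39 over SLC25A40 went from 1.07 to 0.72 and SLC20A1 over SLC20A2 from 1.52 to 1.42.

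**Figure D5:**
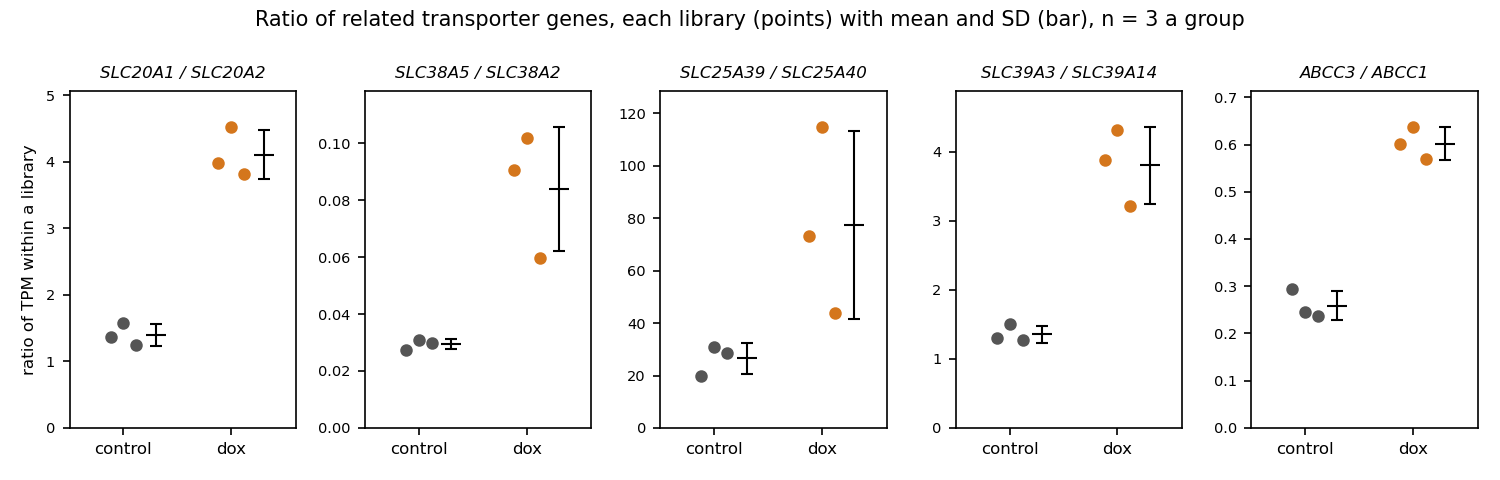
Ratio of TPM within a library (y axis, from 0) for 5 pairs of related transporter genes in each of the 3 control and 3 doxorubicin libraries (points), with the mean and SD beside them. Every doxorubicin point lies above every control point in each panel, which the choice of pairs fixed. SLC20A1 over SLC20A2 is at 1.24 to 1.58 in control and 3.81 to 4.53 after doxorubicin.

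The 14 genes under the minimum of 1 TPM reached at most 1.33 TPM in any library. Of these, 8 lay above the control libraries without overlap after doxorubicin, 0 below, and 6 overlapped. Among all 6499 listed genes, 189 to 193 were at 0 in each control library and 42 to 51 in each doxorubicin library. The rise from near 0 was thus common in the table, and its share among all genes under 1 TPM was not counted. SLC22A16, SLC27A2 and SLC4A10 are listed at 0 in all control libraries. The others are SLC2A13, ABCA3, ABCA4, ABCA5, ABCA12, ABCA13, SLC12A1, SLC18A2, SLC52A1, SLC6A17 and SLCO2A1. Of the genes tested, ABCC9 and SLC66A1L had a mean under 1 TPM in the doxorubicin group, so that they passed through the control group alone.

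The genes called lower were longer and less abundant than those called higher. Their median genomic span in GENCODE was 55336 bp, against 17971 bp for the genes called higher and 32497 bp for all genes tested with a position, and their median level was 5.78 against 14.8 TPM. After quantile normalization the lower and higher genes were at 60791 bp and 24857 bp, and the genes not called at 50840 bp. After median-ratio scaling these values were 53794, 23065 and 97026 bp, so the genes not called were the longest. Spans of all genes in the table by call were not compared, so the difference is not shown to be particular to transporter genes. The part of span and level in these changes was not tested.

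Doxorubicin replicate 3 lay nearest the control libraries in 44 of the 57 transporter genes called lower (77.2%), and in 77.8% of all genes called lower. Without it, 56 transporter genes were called lower and 15 higher. Cell type markers were looked up too, but the table lists only selected changes, so they cannot check the cell type. Of 14 fibroblast markers 6 are listed, with summed levels of 10315 to 10640 TPM in control and 9424 to 11501 TPM after doxorubicin. These had 5 called lower and 1 higher, against 48.5% and 22.7% of all genes tested. The 1 that rose was FN1, from a mean of 4524 to 6220 TPM, which the sum hides. Of 7 epithelial markers 4 are listed, with sums of 140 to 156 and 286 to 311 TPM, of 5 endothelial markers 1 (8.45 to 9.83 and 2.29 to 3.27 TPM), and of 6 leukocyte markers 2 (45.0 to 49.0 and 87.4 to 93.7 TPM), where the defining marker PTPRC was at most 0.62 TPM. The part of these markers in the transporter values was not tested.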

How the data were processed

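Total RNA of WI-38 cells was sequenced from both ends by the authors in 9 libraries. The deposited table covers 6 of them and does not name its unit, and its values were read as TPM made by the authors. TPM and FPKM of a library differ by 1 constant factor, so the choice is a choice of scaling. The submitters' notes name CASAVA, HISAT2, StringTie, RSEM, DESeq2 and edgeR without versions or roles, and the mouse build GRCm38, while the table holds human Ensembl identifiers. The table also holds the authors' group means, fold changes and p-values, which were not used. TPM holds no read totals, and depth is unknown.

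Genes whose mean reached 1 TPM entered limma 3.58.1 under R 4.3.3 as log2(TPM + 1), with 1 coefficient for each group and a robust, trended eBayes step, with the Benjamini-Hochberg adjustment over 5721 genes. On simulated data with these 5721 genes, 93 of 100 genes changed by 1 and 100 of 100 changed by 2 on the log2 scale were recovered, with 9 unchanged genes called. The simulation changed only 200 genes, with independent normal noise, whereas most genes of this preselected list were called. It checks that the fit runs as meant, and its rates do not carry over to these data. The transporter genes, their families, the lists of other genes and the motifs were chosen with earlier results of these data known. Named genes were the 4 largest rises and falls of each main family and the 5 largest overall without overlap, 1 of each direction in the other families, and a fixed list. Genes named outside this rule were chosen after their values were seen. Alternatives were a pseudocount of 0.1, other filters, quantile and median-ratio scaling, a replicate block, other thresholds and leaving out single libraries. Ensembl identifiers were placed with GENCODE release 29 (GRCh38), and promoters were taken from RefSeq on GRCh38.p14. Further steps used Python 3.11.15 with pandas 2.3.3 and NumPy 2.4.6.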

Additional observations from a re-analysis of the deposited data

How the results depend on the processing

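The balance of lower and higher transporter genes depended most on scaling. Quantile normalization gave 34 higher and 32 lower transporter genes, 2 lower SLC25 genes, 2 higher glucose genes and 2 higher drug efflux ABC genes, and median-ratio scaling gave 39 higher transporter genes, 2 higher glucose genes, and 2 higher and 1 lower ABC genes. The SLC25 balance turned under both, to 5 higher and 2 lower and to 6 higher and 5 lower. The balance of all genes tested turned as well. Both scalings also moved the median of all genes tested, and the part of that shift in these counts was not tested. Quantile normalization did not shift all genes alike. It moved the log2 fold change of SLC36A1 from -0.40 to -0.01 and that of SLC1A5 from -0.93 to -0.97. A minimum mean of 5 TPM left 31 lower transporter genes and 9 lower and 1 higher amino acid genes, with fewer genes tested. An unadjusted p gave 2 higher ABC genes. Leaving out single libraries gave 15 to 21 higher and 52 to 56 lower transporter genes, 1 to 3 higher and 15 to 17 lower amino acid genes, 1 to 4 higher and 6 to 7 lower SLC25 genes, and 1 to 2 higher ABC genes. Without doxorubicin replicate 1 there were 1 higher SLC25 gene, 1 higher amino acid gene and 2 higher ABC genes, and without doxorubicin replicate 3 there were 2 higher SLC25 genes. The zinc counts were the same under every alternative run. Same-numbered libraries did not deviate together (r of -0.063, -0.193 and -0.230). With 3 libraries a group, deviations from the group mean constrain each other, so this cannot exclude a pairing. A block for the replicate number gave 19 higher and 56 lower transporter genes. Read depth is unknown, so the precision of low genes cannot be given.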
